A study of Mus musculus with 14 samples.

Results

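The endothelial and pericyte genes described here are 10 genes of the vessels of the brain, read by name from 2 RNA-seq tables of mouse dorsal hippocampus. Cldn5, Cdh5, Pecam1, Ly6c1, Flt1, Slco1a4, Abcb1a and Slc2a1 mark the endothelium, and Pdgfrb and Rgs5 mark pericytes. The 2 tables together list 27591 genes. All 10 were found in both tables and passed the filter on low counts in each, with 259 to 3646 counts per library in the first table and 312 to 5227 in the second.

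The mice were male C57BL6 animals aged 8 months. In the basal experiment, 3 untrained WT mice (WT basal) and 2 untrained THY-Tau22 mice (TAU basal) were compared. In the learning experiment, WT mice that received saline either stayed in the home cage (WT VEH_HC, n = 3) or were given spatial training in the Morris water maze (WT VEH, n = 2). THY-Tau22 mice received CSP, a carbon nanosphere used as carrier (TAU VEH, n = 2), or CSP-TTK21, the carrier with an activator of the histone acetyltransferases CBP and p300 (TAU MOL, n = 2), before the same training. THY-Tau22 mice are heterozygous for a mutated human Tau that a Thy1.2 promoter drives in neurons. The injected vehicle differed between the genotypes, so that genotype and vehicle cannot be told apart in the learning experiment.

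In brain, endothelial cells form the blood-brain barrier. They are sealed by tight junctions, bring glucose, amino acids and hormones into the tissue through dedicated transporters, and return many drugs to the blood through efflux pumps. Pericytes lie on the wall of capillaries, are recruited by endothelial PDGF-B through its receptor PDGFRB, and help to keep the barrier. VEGF from neurons and glia sustains the endothelium, and Wnt signals received through FZD4 and LRP5 hold it in the barrier state.

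Slc2a1 was the gene of the set that was called in a comparison, and Slc2a1 and Cldn5 were the most abundant of the 10 per kilobase of exon. The promoters of these 2 genes are shown for that reason, each with 250 bases before and 50 bases after the start given by RefSeq on GRCm38.p6. These coordinates differ from those of mm9, the build of the counts. The window of Slc2a1 is chr4:119108495-119108794 and that of Cldn5 is chr16:18776597-18776896, both on the plus strand. Capitals mark the letters of a GC box (GGGCGG or its reverse complement CCGCCC) and of a TATA box (TATAAA or its reverse complement TTTATA).
Slc2a1: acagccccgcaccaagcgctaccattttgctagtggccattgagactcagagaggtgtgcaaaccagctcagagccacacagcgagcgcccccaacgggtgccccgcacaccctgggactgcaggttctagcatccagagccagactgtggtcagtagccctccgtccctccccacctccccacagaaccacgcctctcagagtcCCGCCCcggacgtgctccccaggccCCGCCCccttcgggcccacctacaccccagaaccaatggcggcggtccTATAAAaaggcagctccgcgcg
Cldn5: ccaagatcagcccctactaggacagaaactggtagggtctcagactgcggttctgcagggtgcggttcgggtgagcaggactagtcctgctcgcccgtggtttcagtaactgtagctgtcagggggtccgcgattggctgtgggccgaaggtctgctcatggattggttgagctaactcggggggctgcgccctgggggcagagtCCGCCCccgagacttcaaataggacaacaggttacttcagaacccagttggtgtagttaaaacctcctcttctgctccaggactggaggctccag

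The Slc2a1 window held 2 matches to the GC box, 45 and 20 bases before the start, and 1 match to the TATA box 28 bases after it. The Cldn5 window held 1 match to the GC box, 45 bases before the start. Windows of this kind were at hand for 7 of the 10 genes, all but Pecam1, Cdh5 and Pdgfrb, and both strands were searched for 4 motifs. The GC box was in the windows of 3 of these 7 genes (Cldn5, Flt1 and Slc2a1) against 35.7% of all 32851 windows. The letters AGGAAG, bound by ETS factors that are abundant in endothelium, were in the windows of 4 genes (Ly6c1, Flt1, Slco1a4 and Abcb1a) against 35.4% of all windows. The TATA box was in those of 3 genes (Ly6c1, Flt1 and Slc2a1) against 13.6%, and the letters ATCAAAG, bound by the TCF and LEF factors of Wnt signalling, were in none of the 7 against 3.73%. The genes are counted by gene and the shares by window, and Ly6c1 had 2 windows, with the TATA box in one and AGGAAG in the other. These matches are descriptions of the letters and not of binding.

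The libraries held 28639121 to 37681155 counts in the basal experiment and 24693713 to 52180305 in the learning experiment. Levels are given as CPM, the counts scaled to each library's total with TMM factors. A gene was called where the adjusted p was under 0.05 and the log2 fold change exceeded 0.2 in either direction, and SE is its standard error. In bulk tissue, fewer cells of a type and less RNA per cell cannot be told apart. Replicates were separate libraries, and the p-values measure the spread between these samples.

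Some libraries stood apart. In the library of WT VEH_HC replicate 2, each of the 10 genes was higher than in both other home cage libraries, and 6 of the 10 were at their highest among the 9 learning libraries. Its ratio to the mean of the other home cage libraries ranged from 1.07 for Slc2a1 to 1.72 for Cdh5, with a median of 1.46. Markers of smooth muscle, which surrounds arterioles, stood at a median of 4.79 times the other home cage libraries (9 of 9 markers highest of the 9 libraries). Meningeal fibroblast markers stood at a median of 2.89 times and oligodendrocyte markers at 0.513 times. The 36 other endothelial markers had a median ratio of 1.34 and the 14 other pericyte markers 1.54. Their part in the values of this library was not tested, and the results that rest on it are given with and without it.

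**Figure D1:**
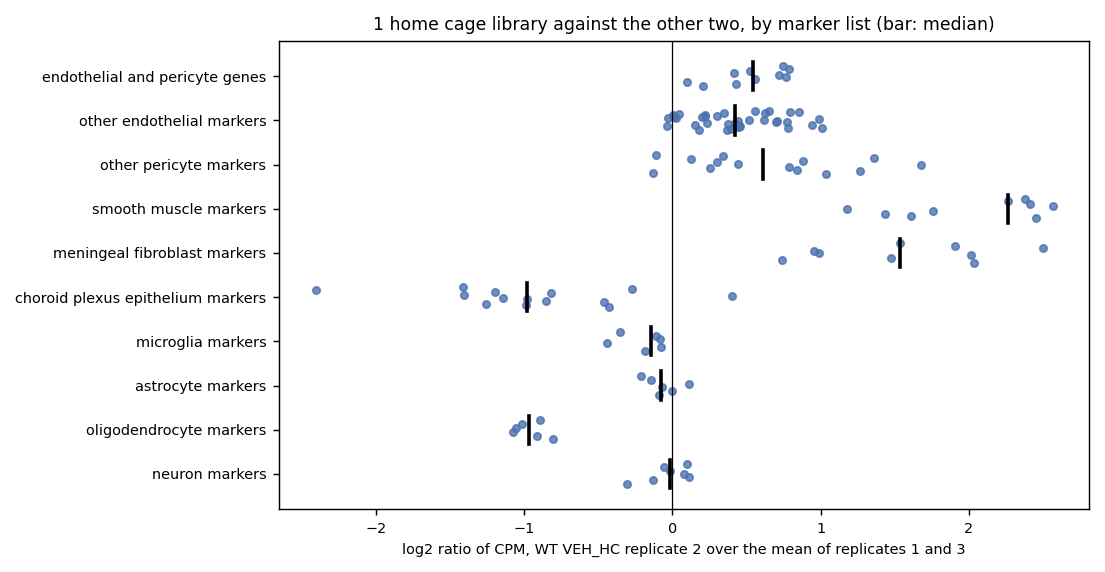
Log2 ratio of the CPM in WT VEH_HC replicate 2 to the mean of WT VEH_HC replicates 1 and 3 (x axis) for the genes of 10 lists (y axis). Each point is 1 gene and each bar the median of a list. The smooth muscle and fibroblast genes lie farthest to the right, all 10 endothelial and pericyte genes lie right of 0, and the oligodendrocyte genes lie left of 0.

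Libraries also differed by GC content. Across genes, the rank correlation of exon GC content with each library's log2 deviation from its experiment's mean was −0.62 to −0.40 in the 4 trained TAU libraries, 0.085 and 0.28 in the WT VEH libraries and 0.41 to 0.45 in the WT VEH_HC libraries. In the basal experiment it was 0.48 in TAU basal replicate 1 and −0.60 in TAU basal replicate 2, against 0.067 to 0.32 in WT basal. The GC content of the exons of the 10 genes ran from 40.4% in Slco1a4 and 41.0% in Rgs5, through 45.6% in Abcb1a, 47.4% in Flt1, 49.4% in Pecam1, 49.9% in Ly6c1 and 52.2% in Cdh5, to 54.96% in Slc2a1, 55.002% in Pdgfrb and 60.5% in Cldn5. Fold changes are therefore also given after adjustment for exon GC content and length, called the GC adjustment here. Markers of the choroid plexus epithelium, which lies beside the hippocampus, varied most. Their summed level was 1596 to 2476 CPM in WT VEH, 79.6 to 239.97 in WT VEH_HC, 242 to 286 in TAU VEH and 719.9 to 785 in TAU MOL, and 405 and 1321 in the TAU basal libraries against 276 to 444 in WT basal.

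On mm9, the genome build of the counts, Cldn5 lies on chromosome 16 (18776940 to 18778353), Cdh5 on chromosome 8 (106625525 to 106668402), Pecam1 on chromosome 11 (106515531 to 106611942) and Ly6c1 on chromosome 15 (74875447 to 74879260). Flt1 and Abcb1a lie on chromosome 5 (148373180 to 148537587 and 8660077 to 8748575), Slco1a4 on chromosome 6 (141753961 to 141804720), Slc2a1 on chromosome 4 (118781316 to 118809935), Pdgfrb on chromosome 18 (61204804 to 61244715) and Rgs5 on chromosome 1 (171585632 to 171625944). Their exons span from 0.84 kb in Ly6c1 to 11.6 kb in Flt1, and Cldn5 is a gene of a single exonic block. Of the 10, only Slc2a1 shared exonic bases with another annotated gene, 105 bases with Gm12868 on the opposite strand, and the library kit did not mark strand. Ly6c1 and Abcb1a have close paralogs in Ly6c2 and Abcb1b, so that their counts rest on the reads that aligned uniquely.

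Per kilobase of exon, the first 4 places of the order were held by the same genes in all 6 groups, and the places behind them varied. In WT VEH (n = 2), Slc2a1, the glucose transporter GLUT1, stood first at 42.3 ± 4.03 CPM per kb (SD), ahead of Cldn5 at 25.3 ± 1.55, Ly6c1 at 17.5 ± 1.76 and Rgs5 at 9.43 ± 0.452. Flt1 (6.07 ± 0.336) and Pdgfrb (5.50 ± 0.193) followed, then Slco1a4 at 4.24 ± 0.436. Cdh5 (3.15 ± 0.128), Pecam1 (3.03 ± 0.0944) and Abcb1a (2.88 ± 0.176) closed the order. Cdh5 and Pecam1 overlapped, as did Pecam1 and Abcb1a, while both values of Cdh5 lay above those of Abcb1a. By group mean, Slc2a1 ranked first and Cldn5 second in 5 of the 6 groups. Their libraries overlapped in WT basal (31.8 ± 2.66 against 30.5 ± 1.90 CPM per kb) and in WT VEH_HC (33.5 ± 1.59 against 33.2 ± 10.8). In TAU basal they stood at 29.6 ± 4.28 and 30.7 ± 11.8 CPM per kb, which did not differ beyond their spread.

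**Figure D2:**
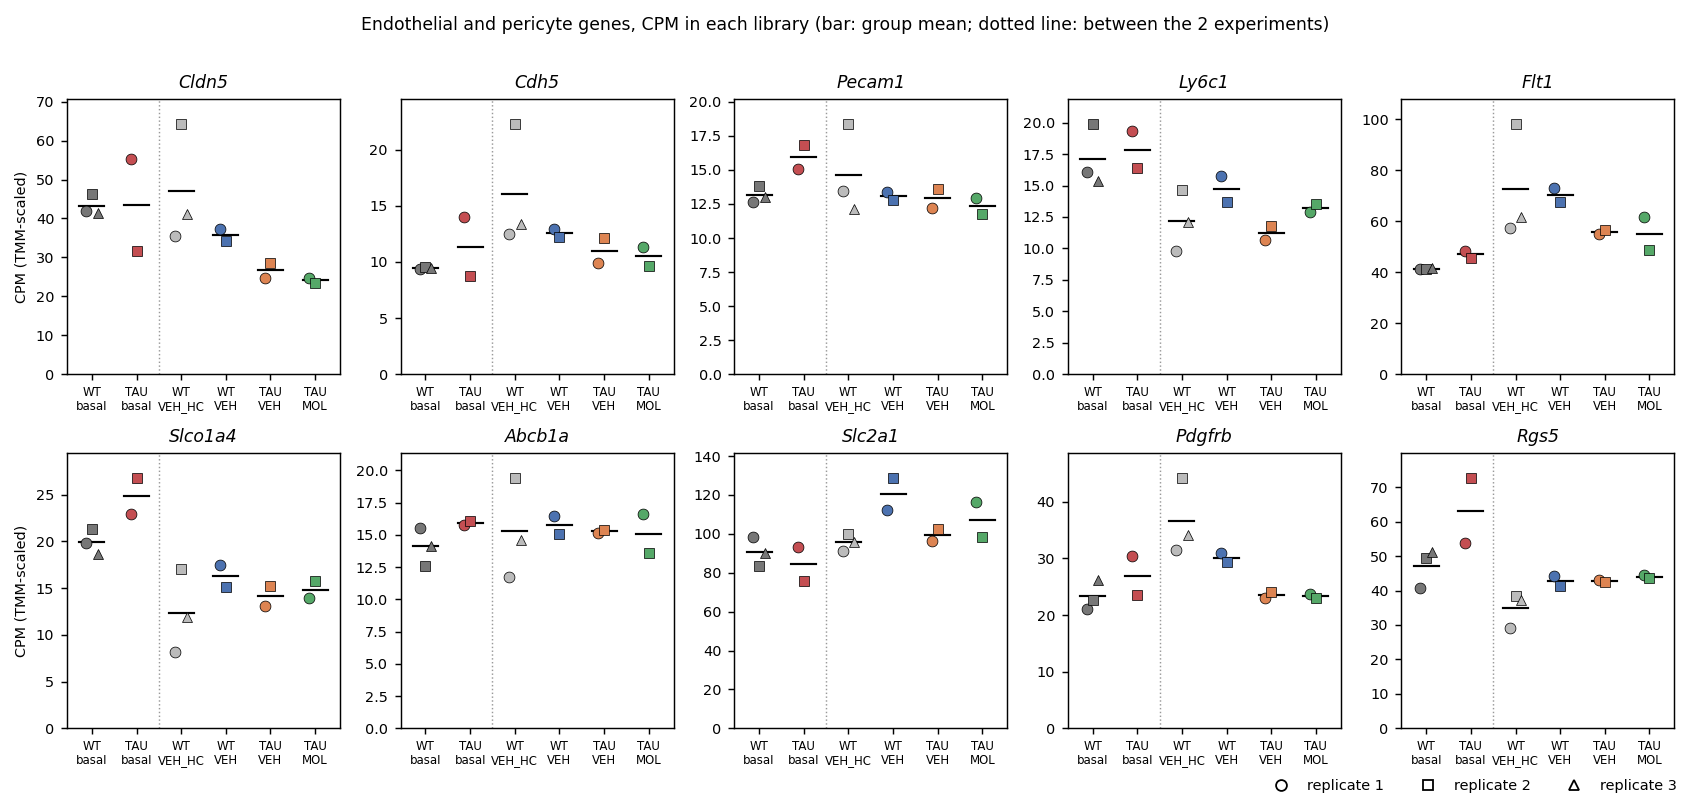
CPM (y axis, TMM-scaled) of each of the 10 genes in each library of the 6 groups (x axis). Points are libraries, marker shapes give the replicate number, bars are group means, and the dotted line separates the basal from the learning experiment, which were scaled separately. For Cldn5, Cdh5, Ly6c1, Flt1 and Pdgfrb the libraries of both trained TAU groups lie below those of WT VEH, and none of these genes was called. WT VEH_HC replicate 2 is the highest home cage library in each panel.

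The first comparison asked whether the genes differed between untrained THY-Tau22 and WT mice. None of the 10 was called (edgeR, adjusted p from 0.901 to 0.998), where 4 of 16324 genes were called in all (0.0245%), 1 higher (0.00613%) and 3 lower (0.0184%). Over all genes, 803 had an unadjusted p under 0.05 and DESeq2 called 40, none of them among the 10. Of the 10 fold changes, 9 were above 0, with a median of 0.20 on the log2 scale against −0.0072 over all genes. The TAU basal libraries lay above all WT basal libraries in 5 genes (Pecam1, Flt1, Slco1a4, Abcb1a and Rgs5), where 9.01% of all genes did so and 9.49% lay below. After the GC adjustment, for which the share of all genes was not computed, Flt1 and Abcb1a overlapped between the groups and the other 3 genes did not. Unadjusted p was under 0.05 for 2 of them, Rgs5 and Slco1a4.

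Among the junction and adhesion genes of the untrained mice, Cldn5, the main claudin of the barrier's tight junctions, stood at 42.0, 46.3 and 41.3 CPM in WT basal and at 55.2 and 31.7 in TAU basal. One TAU library was above and the other below all WT libraries, and the log2 fold change was 0.01 (SE 0.20). Cdh5, the VE-cadherin of endothelial adherens junctions, stood at 9.40, 9.54 and 9.43 CPM in WT basal and at 13.99 and 8.72 in TAU basal, again on both sides of WT (log2 fold change 0.27, SE 0.19). These were also the 2 genes in which the TAU basal libraries lay farthest apart relative to their mean, with a coefficient of variation of 38.3% for Cldn5 and 32.8% for Cdh5. After the GC adjustment, Cldn5 stood at 50.7 and 38.1 CPM in the TAU basal libraries. Pecam1, the adhesion molecule CD31, stood at 12.6, 13.8 and 13.01 CPM in WT basal and at 15.04 and 16.8 in TAU basal (log2 fold change 0.27, SE 0.12, unadjusted p = 0.0524, adjusted p = 0.901). Ly6c1, a surface protein of brain endothelium, overlapped between the groups, with 16.0, 19.9 and 15.3 CPM in WT basal and 19.3 and 16.4 in TAU basal.

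Flt1, the VEGF receptor 1, was very even in WT basal at 41.1, 41.3 and 41.6 CPM and stood at 48.2 and 45.8 in TAU basal (log2 fold change 0.18, SE 0.11, adjusted p = 0.901). GC-adjusted Flt1 stood at 41.02, 45.8 and 40.7 CPM in WT basal and at 49.2 and 41.4 in TAU basal, with a log2 fold change of 0.092. The transporter of organic anions Slco1a4 stood at 19.8, 21.3 and 18.6 CPM in WT basal and at 23.0 and 26.8 in TAU basal, with a log2 fold change of 0.32 (SE 0.12, unadjusted p = 0.0283, adjusted p = 0.901), or 0.20 after the GC adjustment. The efflux pump Abcb1a stood at 15.6, 12.6 and 14.1 CPM in WT basal and at 15.8 and 16.1 in TAU basal, and its log2 fold change of 0.18 was 0.11 after the GC adjustment. Slc2a1, at 98.5, 83.3 and 90.4 CPM in WT basal and 93.0 and 75.8 in TAU basal, was the one gene with a fold change below 0 (log2 fold change −0.10, SE 0.13).

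Of the pericyte genes, Rgs5, a regulator of G protein signalling, gave the largest difference of the 10. It stood at 40.9, 49.4 and 51.1 CPM in WT basal and at 53.7 and 72.7 in TAU basal, with a log2 fold change of 0.42 (SE 0.15, unadjusted p = 0.0201, adjusted p = 0.901). Leaving out 1 library at a time, its fold change ran from 0.19 to 0.65. After the GC adjustment its fold change was 0.29 and the 2 TAU libraries came to 57.9 and 61.0 CPM. Pdgfrb, the receptor through which pericytes are recruited, overlapped between the groups, with 21.1, 22.6 and 26.2 CPM in WT basal and 30.3 and 23.5 in TAU basal. The 36 other endothelial markers and the 14 other pericyte markers had 0 calls as well, with median log2 fold changes of 0.083 and 0.16. The median was −0.53 for red blood cell markers, 0.17 for microglia markers, 0.13 for astrocyte markers and 0.054 for neuron markers, with 0 calls. Choroid plexus markers had a median of 0.83, meningeal fibroblast markers one of 0.64, smooth muscle markers one of 0.46 and oligodendrocyte markers one of −0.51, also with 0 calls. The TAU basal libraries differed in these lists. The summed level was 257 CPM in replicate 1 and 118 in replicate 2 for fibroblast markers (103 to 163 in WT basal), 80.8 and 30.3 for smooth muscle markers (28.7 to 62.4) and 218 and 136 for the other pericyte markers (158 to 175). Oligodendrocyte markers were at 6863 and 6549 CPM, below the 7053 to 11677 of WT basal. Their part in the values of the 10 genes was not tested.

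The second comparison asked the same of trained mice, TAU VEH against WT VEH. None of the 10 genes was called, where 2423 of 16820 genes were called in all (14.4%), 1815 of them lower in TAU VEH (10.8%) and 608 higher (3.61%). All 10 fold changes were below 0, from −0.43 for Cldn5 to −0.0035 for Rgs5, with a median of −0.25 on the log2 scale against 0.0041 over all genes. In 6 genes (Cldn5, Cdh5, Ly6c1, Flt1, Slc2a1 and Pdgfrb) both TAU VEH libraries lay below both WT VEH libraries, where 29.4% of all genes did so and 28.5% lay above. GC-adjusted, Cldn5 and Cdh5 overlapped between the groups and Slco1a4, Abcb1a and Rgs5 no longer did. The share of all genes was not computed on that scale. Leaving out 1 library of either group, the calls over all genes were 915 to 1276, with 0 of the 10 genes among them. The adjusted p was 0.0727 for Slc2a1, 0.1 for Pdgfrb, 0.127 for Ly6c1, 0.225 for Cldn5 and 0.335 for Flt1. The 9 learning libraries share 1 estimate of the spread. With WT VEH_HC replicate 2 left out, which belongs to neither group, 5 of the 10 genes were called lower in TAU VEH (Cldn5, Flt1, Ly6c1, Pdgfrb and Slc2a1), where 12.6% of all genes were called lower and 5.02% higher. This alternative was chosen after seeing the data. Also 5 genes were called lower in a fit of the 2 groups alone (13.9% of all genes called lower and 7.1% higher) and with no filter on low counts (7.8% and 3.27%).

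Cldn5 stood at 37.3 and 34.2 CPM in WT VEH and at 24.7 and 28.6 in TAU VEH, 0.742-fold as high (log2 fold change −0.43, SE 0.21). Without WT VEH_HC replicate 2 its fold change was the same to 2 decimals and its adjusted p 0.00618, whereas after the GC adjustment the fold change was −0.11 with an adjusted p of 0.858. Cdh5 stood at 12.9 and 12.2 CPM in WT VEH and at 9.89 and 12.1 in TAU VEH (log2 fold change −0.20, SE 0.24). The lower of the WT libraries and the higher of the TAU libraries almost touched. Pecam1 overlapped between the groups, with 13.3 and 12.8 CPM in WT VEH and 12.2 and 13.6 in TAU VEH. Ly6c1 stood at 15.8 and 13.7 CPM in WT VEH and at 10.7 and 11.8 in TAU VEH, 0.759-fold as high (log2 fold change −0.40, SE 0.16). Its value hardly moved after the GC adjustment, to −0.42 (adjusted p = 0.181), and its adjusted p without WT VEH_HC replicate 2 was 0.0296.

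Flt1 stood at 73.0 and 67.5 CPM in WT VEH and at 54.9 and 56.5 in TAU VEH, 0.792-fold as high (log2 fold change −0.34, SE 0.21). The 2 groups were apart by more than the distance between the libraries of either group. After the GC adjustment its fold change was −0.44 (adjusted p = 0.278), and without WT VEH_HC replicate 2 its adjusted p was 0.0277. FLT1 binds VEGF-A, VEGF-B and placental growth factor and acts largely as a trap for VEGF-A. Slc2a1 stood at 113 and 129 CPM in WT VEH and at 96.5 and 102 in TAU VEH, 0.824-fold as high (log2 fold change −0.28, SE 0.094). DESeq2 called it lower (adjusted p = 0.0444), 1 of the 10 genes where it called 1728 of 16820 genes lower, and the GC adjustment brought its fold change to −0.13 (adjusted p = 0.482). Slco1a4 and Abcb1a overlapped between the groups. Slco1a4 stood at 17.5 and 15.2 CPM in WT VEH and at 13.1 and 15.2 in TAU VEH, and Abcb1a at 16.5 and 15.1 in WT VEH and at 15.2 and 15.4 in TAU VEH.

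The 2 pericyte genes differed in their values. Pdgfrb stood at 30.9 and 29.4 CPM in WT VEH and at 23.0 and 24.1 in TAU VEH, 0.781-fold as high (log2 fold change −0.36, SE 0.13). Without WT VEH_HC replicate 2 its adjusted p was 0.00627, and after the GC adjustment its fold change was −0.20 (adjusted p = 0.435). Rgs5 stood at 44.3 and 41.4 CPM in WT VEH and at 42.9 and 42.6 in TAU VEH, with the TAU libraries between the WT libraries (log2 fold change −0.0035, SE 0.11). Whether the difference of Pdgfrb differs from that of Rgs5 was not tested.

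After the GC adjustment, all 10 fold changes were still below 0, with a median of −0.15 and a range from −0.44 (Flt1) to −0.060 (Pecam1), and 0 of the 10 were called, where 484 of 16820 genes were called in that fit, 402 of them lower. The genes of high GC content moved toward 0 and those of low GC content away from it, as in Slco1a4 from −0.21 to −0.36 and in Rgs5 from −0.0035 to −0.15. Scaling by library size alone moved the median of all genes to 0.15, and on that scale Pecam1 (0.13), Abcb1a (0.099) and Rgs5 (0.14) were above 0 and the other 7 genes below it. With the choroid plexus level of each library as a covariate, 9 of the 10 fold changes were below 0, with a median of −0.51, and 0 of all genes were called in that fit.

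**Figure D3:**
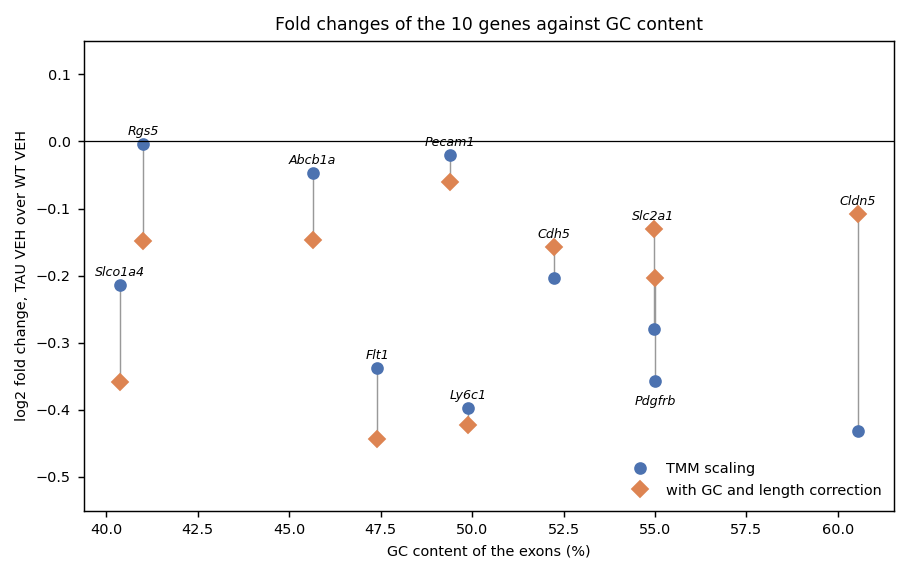
Log2 fold change of the 10 genes in TAU VEH over WT VEH (y axis) against the GC content of their exons in percent (x axis). Circles are values with TMM scaling and diamonds values after the GC adjustment, joined by a line for each gene. Cldn5, at 60.5% GC, moves from −0.43 to −0.11, and Rgs5, at 41.0%, from −0.0035 to −0.15, and all points lie below 0.

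Genes of the wider lists were also called in this comparison, where 10.8% of all genes were called lower and 3.61% higher. Of the 36 other endothelial markers, 6 were called lower and 0 higher, with a median of −0.29, with 14 called lower without WT VEH_HC replicate 2 and 3 after the GC adjustment. Over all genes, 2106 of 16704 were called lower in the first of these fits and 402 of 16820 in the second. Lef1, a transcription factor of Wnt signalling that neurons and other cells also use, stood at 3.52 ± 0.460 CPM in TAU VEH and 5.83 ± 0.606 in WT VEH (SD, n = 2 each, log2 fold change −0.74, SE 0.18, adjusted p = 0.0196). Egfl7, a matrix protein secreted by endothelium, stood at 18.1 ± 1.31 against 25.9 ± 2.09 CPM (log2 fold change −0.53, adjusted p = 0.0074). Slco1c1, the thyroxine transporter of the barrier and of astrocytes, stood at 33.9 ± 2.86 against 47.1 ± 4.87 CPM (log2 fold change −0.48, adjusted p = 0.035). Of the 14 other pericyte markers, 2 were called lower, against 4 without WT VEH_HC replicate 2 and 0 after the GC adjustment. For Notch3, a receptor of mural cells, the log2 fold change was −0.62 (SE 0.17, adjusted p = 0.0347), and for Cspg4, the proteoglycan NG2 of pericytes and of oligodendrocyte precursors, it was −0.59 (SE 0.12, adjusted p = 0.00558). The 9 smooth muscle markers had 0 calls and a median of 0.32.

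In the list of 14 genes of VEGF, PDGF-B and angiopoietin signalling, 2 were called lower and 1 higher. Over all genes, 10.8% were called lower and 3.61% higher in this fit. Vegfb, a ligand of FLT1, stood at 60.1 ± 1.91 CPM in TAU VEH and 87.7 ± 4.84 in WT VEH (SD, n = 2 each, log2 fold change −0.55, adjusted p = 0.00123). Pdgfb, the ligand of PDGFRB, stood at 29.0 ± 0.927 against 39.5 ± 0.123 CPM (log2 fold change −0.45, adjusted p = 0.0162). Nrp1, a co-receptor of VEGF that neurons also carry, was higher at 113 ± 0.318 against 92.4 ± 7.53 CPM (log2 fold change 0.29, adjusted p = 0.0362). None of these 3 was called after the GC adjustment. Of 14 genes of endothelial Wnt signalling, 2 were called lower, Lef1 and the co-receptor Lrp5 (log2 fold change −0.42, adjusted p = 0.0395). Of 7 measured genes of endothelial activation, 1 was called, Plvap, a protein of fenestrated endothelium such as that of the choroid plexus, which was lower (log2 fold change −0.31, adjusted p = 0.0412). Of the 14 choroid plexus markers, 13 were called lower, with a median of −2.51, and their part in these values was not tested. Neuron markers were called lower in 3 of 7, meningeal fibroblast markers in 2 of 9 and microglia markers in 1 of 6, astrocyte markers were called higher in 3 of 6, and the part of these cells was not tested either.

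The third comparison set TAU MOL against WT VEH, the same control libraries as for TAU VEH. None of the 10 genes was called, where 947 of 16820 genes were called (5.63%), 844 of them lower (5.02%) and 103 higher (0.612%). Of the 10 fold changes, 9 were below 0, with a median of −0.16 against 0.0020 over all genes. In 5 genes (Cldn5, Cdh5, Ly6c1, Flt1 and Pdgfrb) both TAU MOL libraries lay below both WT VEH libraries, where 26.9% of all genes did so and 25.6% lay above. GC-adjusted, a scale on which the share of all genes was not computed, Pecam1, Slco1a4 and Rgs5 lay below as well. The count over all genes rested on each library, since it was 2 to 4 when 1 library of either group was left out (4 without WT VEH replicate 1 or 2, 2 without TAU MOL replicate 1 or 2). In the fit that left out WT VEH_HC replicate 2, 3 of the 10 were called lower (Cldn5, Flt1 and Pdgfrb), where 6.85% of all genes were called lower and 1.4% higher. A fit of the 2 groups alone called 2 lower (Cldn5 and Pdgfrb, against 7.09% of all genes lower and 2.1% higher), and the fit with no filter called 3 lower (against 4.79% and 1.34%).

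Cldn5 stood at 24.8 and 23.5 CPM in TAU MOL, 0.675-fold the level of WT VEH (log2 fold change −0.57, SE 0.21, adjusted p = 0.161). This was the largest difference of the 10 genes in the 5 comparisons, and it came to −0.34 after the GC adjustment (adjusted p = 0.585). Without WT VEH_HC replicate 2 its adjusted p was 0.0039. Flt1 stood at 61.6 and 48.7 CPM in TAU MOL (log2 fold change −0.35, SE 0.20, adjusted p = 0.392), farther apart than in TAU VEH. Leaving out 1 library at a time, the fold change of Flt1 ran from −0.53 to −0.19. Pdgfrb stood at 23.7 and 23.0 CPM (log2 fold change −0.37, SE 0.13, adjusted p = 0.137), almost the level of TAU VEH. Slc2a1 stood at 116 and 98.4 CPM, so that one library lay between the WT VEH libraries (log2 fold change −0.17, SE 0.094, adjusted p = 0.368).

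Ly6c1 and Cdh5 lay below WT VEH in both libraries, and the 4 genes after them overlapped with it. Ly6c1 was at 12.9 and 13.6 CPM in TAU MOL (log2 fold change −0.15, SE 0.15) and Cdh5 at 11.4 and 9.65 (log2 fold change −0.26, SE 0.23). Pecam1 stood at 12.9 and 11.8 CPM, Slco1a4 at 13.9 and 15.8, and Abcb1a at 16.6 and 13.6. Rgs5 stood at 44.5 and 43.6 CPM and was the one gene with a fold change above 0 (0.039, SE 0.11), which turned to −0.11 after the GC adjustment. With library size alone, which moved the median of all genes to 0.12, Pecam1 (0.042) and Abcb1a (0.056) were above 0 as well.

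In the wider lists, 4 of 36 other endothelial markers were called lower in TAU MOL than in WT VEH and 0 of 14 other pericyte markers, against 10 and 3 in the fit that left out WT VEH_HC replicate 2. Over all genes, 5.02% were called lower in the first of these fits and 6.85% in the second. Kdr, the VEGF receptor 2 and main signalling receptor of VEGF-A, stood at 9.89 ± 0.686 against 16.1 ± 0.905 CPM (SD, n = 2 each, log2 fold change −0.71, SE 0.17, adjusted p = 0.0361). Egfl7 was lower by a log2 fold change of −0.60 (adjusted p = 0.0123), and Slc7a5, a transporter of large neutral amino acids, by one of −0.36 (adjusted p = 0.0322). Of the 14 genes of VEGF, PDGF-B and angiopoietin signalling, 4 were called lower, the 3 largest being Kdr, Pdgfb (log2 fold change −0.47, adjusted p = 0.0263) and Vegfb (−0.44, adjusted p = 0.0104). After the GC adjustment, 0 genes of these lists were called. In that fit 25 of 16820 genes were called in all. In the comparison of TAU MOL with WT VEH, 8 of 14 choroid plexus markers, 2 of 7 neuron markers, 1 of 9 meningeal fibroblast markers and 1 of 6 microglia markers were called lower and 2 of 6 astrocyte markers higher, and their part in these values was not tested.

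The fourth comparison asked whether CSP-TTK21 changed the genes in trained THY-Tau22 mice, TAU MOL against TAU VEH. None of the 10 genes was called, and of all 16820 genes edgeR called 0 (0%), with 1064 at an unadjusted p under 0.05, while DESeq2 called 52, none of them among the 10. The fold changes of the 10 genes lay between −0.14 for Cldn5 (SE 0.22) and 0.24 for Ly6c1 (SE 0.16), with a median of −0.011, and 4 were above 0. Ly6c1 (12.9 and 13.6 CPM in TAU MOL against 10.7 and 11.8 in TAU VEH) and Rgs5 (44.5 and 43.6 against 42.9 and 42.6) were higher in both TAU MOL libraries than in both TAU VEH libraries, where 21.5% of all genes were and 17.4% were lower in both. For Rgs5 the fold change was 0.042 (SE 0.11), and its libraries overlapped after the GC adjustment. The SE ran from 0.094 for Slc2a1 to 0.24 for Slco1a4. The other endothelial, pericyte and signalling lists had 0 calls. Choroid plexus markers (14 of 14 above 0, median 1.17), smooth muscle markers (9 of 9, median 0.16) and red blood cell markers (0 of 5, median −0.24) also had 0 calls. Their part in the values of the 10 genes was not tested.

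**Figure D4:**
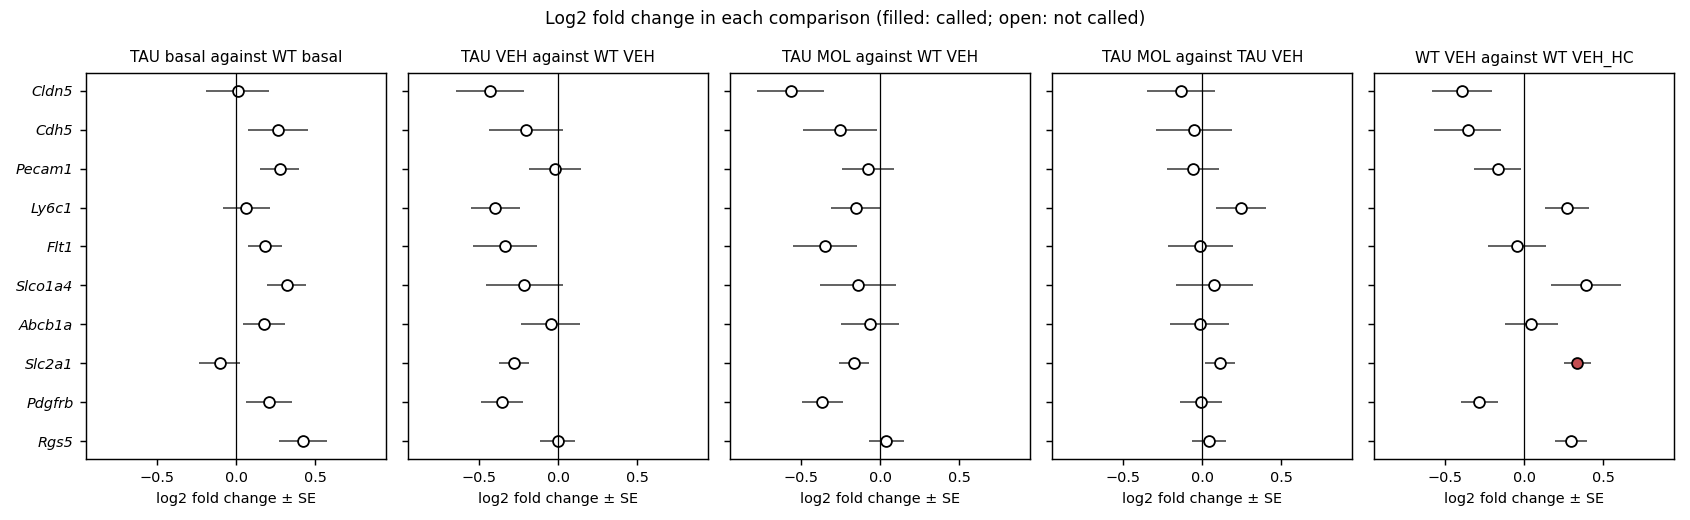
Log2 fold change (x axis) of the 10 genes (y axis) in the 5 comparisons, with bars of 1 SE. Filled points were called and open points were not. The filled point is Slc2a1 in WT VEH against WT VEH_HC (0.34), and all 10 points lie at or below 0 in TAU VEH against WT VEH. Those of TAU MOL against TAU VEH lie between −0.14 and 0.24.

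The fifth comparison asked how the genes differed between trained and home cage WT mice, WT VEH against WT VEH_HC. Slc2a1 was called higher in the trained mice, 1 of the 10 genes, where 1413 of 16820 genes were called (8.4%), 900 of them higher (5.35%) and 513 lower (3.05%). Of the 10 fold changes, 5 were above 0 and 5 below, with a median of −0.0016 against −0.0028 over all genes. In Slc2a1 and Rgs5 both trained libraries lay above all home cage libraries, where 23% of all genes did so, and in Pdgfrb both lay below, where 20.8% did. Leaving out WT VEH_HC replicate 2, 4 genes were called higher (Slc2a1, Slco1a4, Ly6c1 and Rgs5) and 0 lower, where 3.92% of all genes were called higher and 1.78% lower. With no filter on low counts, 3 were called higher (Slc2a1, Slco1a4 and Rgs5, against 6.06% of all genes) and 3 lower (Cldn5, Cdh5 and Pdgfrb, against 4.3%).

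Slc2a1 carries glucose across the barrier and is also made by astrocytes, in a less glycosylated form. It stood at 91.0, 100.1 and 95.7 CPM in WT VEH_HC and at 113 and 129 in WT VEH, 1.26-fold higher (log2 fold change 0.34, SE 0.085, adjusted p = 0.0377). All 3 home cage libraries lay within a narrow range, with a coefficient of variation of 4.75%, below both trained libraries. After the GC adjustment the fold change was 0.38 (adjusted p = 0.0202), and without WT VEH_HC replicate 2 it was 0.37 (adjusted p = 0.0311). The call was lost, with the fold change still above 0, when 1 WT VEH library was left out (0.43 without replicate 1, 0.24 without replicate 2). Without WT VEH_HC replicate 1 the call was lost too (0.30, adjusted p = 0.0894), where 614 of 16752 genes were called. It was also lost in a fit of the 2 groups alone (0.34, adjusted p = 0.065), where 310 of 16426 genes were called, and with the choroid plexus level as a covariate (0.46, adjusted p = 0.947). In that last fit 0 of all genes were called. All 14 choroid plexus markers were called higher in WT VEH than in WT VEH_HC, with a median of 3.5. Their part in the value of Slc2a1 was not tested.

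The other 2 transporters were not called. Slco1a4 stood at 8.16, 17.1 and 11.9 CPM in WT VEH_HC (log2 fold change 0.39, SE 0.22, adjusted p = 0.269), where replicate 2 reached the level of the trained mice, and without that library its fold change was 0.70 (adjusted p = 0.0166). Abcb1a stood at 11.7, 19.4 and 14.6 CPM in WT VEH_HC, on both sides of the trained mice. Flt1 did so too, at 57.5, 98.2 and 61.8 CPM (log2 fold change −0.047, SE 0.19). Without WT VEH_HC replicate 2 the fold change of Flt1 turned to 0.24 and was not called.

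Of the junction and adhesion genes, Cldn5 stood at 35.4, 64.3 and 41.2 CPM in WT VEH_HC (log2 fold change −0.39, SE 0.19, adjusted p = 0.207) and Cdh5 at 12.5, 22.3 and 13.4 (−0.36, SE 0.21, adjusted p = 0.291). Without replicate 2 these fold changes were −0.099 and −0.043. Pecam1 stood at 13.5, 18.4 and 12.1 CPM (log2 fold change −0.17, SE 0.15), which turned to 0.032 without that library. Ly6c1 stood at 9.82, 14.7 and 12.1 CPM (log2 fold change 0.27, SE 0.14, adjusted p = 0.237), and without it the fold change was 0.42 (adjusted p = 0.0476).

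The pericyte genes lay on opposite sides. Rgs5 stood at 29.2, 38.4 and 37.2 CPM in WT VEH_HC, below both trained libraries (log2 fold change 0.29, SE 0.10, adjusted p = 0.0858). Without WT VEH_HC replicate 2 it was called (0.37, adjusted p = 0.0416), and after the GC adjustment the fold change was 0.15 (adjusted p = 0.353). Pdgfrb stood at 31.5, 44.2 and 34.2 CPM in WT VEH_HC, above both trained libraries (log2 fold change −0.28, SE 0.12, adjusted p = 0.145), and came to −0.13 without replicate 2. GC-adjusted, it overlapped between the groups, with 29.03, 40.04 and 32.7 CPM in WT VEH_HC and 30.3 and 28.6 in WT VEH.

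Among the other endothelial markers, 6 of 36 were called higher in the trained mice and 0 lower, where 5.35% of all genes were called higher. The count was 6 without WT VEH_HC replicate 2 (3.92% of all genes called higher) and 5 after the GC adjustment. It was 0 without WT VEH replicate 1, 1 without WT VEH replicate 2 and 0 with the choroid plexus level as a covariate, fits in which the calls over all genes were 73 of 17305, 282 of 17333 and 0 of 16820. Apold1, an early-response gene of endothelium, stood at 3.96 ± 0.137 CPM in WT VEH (SD, n = 2) and 2.03 ± 0.348 in WT VEH_HC (n = 3, log2 fold change 0.96, SE 0.17, adjusted p = 0.0103). Slco1c1 stood at 47.1 ± 4.87 against 25.5 ± 4.11 CPM (log2 fold change 0.89, adjusted p = 0.00272) and the tight junction gene Ocln at 9.84 ± 0.400 against 6.86 ± 0.328 (0.52, adjusted p = 0.0116). Vegfa (log2 fold change 0.44, adjusted p = 0.00747) and Angpt1, the ligand of the endothelial receptor TIE2 (0.69, adjusted p = 0.0373), were called higher and the neuropilin Nrp2 lower (−0.36, adjusted p = 0.0203). In the Wnt list the receptor Fzd4 (0.88, adjusted p = 0.0039) and its co-receptor Tspan12 (0.43, adjusted p = 0.0332) were called higher. In the activation list Vcam1, an adhesion molecule for leukocytes, was higher (0.53, adjusted p = 0.0241) and Plvap lower (−0.32, adjusted p = 0.0353). The other pericyte markers and the smooth muscle markers had 0 calls, with medians of −0.20 and −1.07. All 14 choroid plexus markers were called higher, with a median of 3.5. Red blood cell markers were called higher in 2 of 5, with a median of 0.40, meningeal fibroblast markers in 1 of 9 and microglia markers in 1 of 6. The part of these tissues and cells in the endothelial values was not tested.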

How the data were processed

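The dorsal hippocampus of male mice was profiled by poly-A RNA-seq. The authors aligned single-end reads with TopHat2 2.0.10 and Bowtie2 2.1.0 to mm9 and took gene counts of uniquely aligned reads from HTSeq 0.5.4p3 with Ensembl annotation. They deposited raw counts, used for all tests, and, in the same deposited tables, a size-factor normalized signal that served only to check columns here. Per their methods, some libraries had been left out after inspection. The basal experiment and the 9 learning libraries had a fit each, with edgeR 4.0.16 in R 4.3.3 (TMM, filterByExpr, quasi-likelihood F test, Benjamini-Hochberg over all genes). The study's limits for a call were kept (adjusted p under 0.05, log2 fold change beyond 0.2 either way). DESeq2 1.42.0 was the alternative. The GC adjustment used loess offsets (span 0.3) and mm9 exons, and covered 99.8% of the genes tested. Tests were checked on simulated counts. The labels do not say whether replicate numbers pair the mice. The members and all gene lists were chosen with earlier results of these data known. All 10 members are named, and of the other lists of vessel genes at most the 3 largest changes called in each comparison, with a mean of at least 50 counts. With 2 or 3 mice a group, the number of mice limits the precision. Plots were drawn in Python 3.11.15 with pandas 2.3.3 and matplotlib 3.10.9.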

Additional observations from a re-analysis of the deposited data

Results flagged for a closer look

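Flt1 was picked from the 10 genes because its groups did not overlap in either experiment and lay in opposite order. The sign change was not particular to it. Of the 10 fold changes, 9 were above 0 in untrained mice and 10 below 0 in trained mice. Both TAU basal libraries lay above all WT basal libraries (log2 fold change 0.18), where 9.01% of all genes did so. Both TAU VEH libraries lay below both WT VEH libraries (log2 fold change −0.34), where 29.4% of all genes did so. The fold change in trained mice minus that in untrained mice was −0.52. After adjustment for GC content and length, Flt1 overlapped between the untrained groups (log2 fold change 0.092). The difference was not tested, because the experiments were made and scaled separately, and neither fold change was called.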

How the results depend on the processing

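The counts of the 10 genes called were 0 under every alternative in TAU basal against WT basal and in TAU MOL against TAU VEH. These fits called few genes in all, at most 125 of 24594 in the first and 233 of 25933 in the second (no filter). With the replicate block and the GC adjustment it was 1 in each. Counts of 0 in such fits say little about the 10 genes. For TAU VEH against WT VEH, DESeq2 called 1 gene (2493 of all 16820 genes), and 5 were called with no filter, 5 with the 2 groups fitted alone and, leaving out 1 library at a time, 0 to 5, the 5 without WT VEH_HC replicate 2 (2944 calls over all genes) and the 0s in fits with 915 to 1276. For TAU MOL against WT VEH, 3 were called with no filter, 2 with the 2 groups alone and 0 to 3 leaving out 1 library, the 3 without WT VEH_HC replicate 2 (1379 calls over all genes) and the 0s in fits with 2 to 4, which say nothing about the 10 genes. For WT VEH against WT VEH_HC, 6 were called with no filter (3 higher and 3 lower) and 0 with the 2 groups alone (310 of all 16426 genes). With the choroid plexus covariate 0 were called, where 0 of all genes were. Leaving out 1 library, 0 to 4 were called, the 4 without WT VEH_HC replicate 2 (952 calls over all genes) and 0 without WT VEH_HC replicate 1 (614 calls). The cause was not tested. Library size alone moved the split of all calls, with 1020 of 3598 calls lower for TAU VEH over WT VEH against 1815 of 2423, and 326 of 1083 lower for TAU MOL over WT VEH against 844 of 947. The GC adjustment left 484, 25 and 766 calls over all genes in TAU VEH against WT VEH, TAU MOL against WT VEH and WT VEH against WT VEH_HC. Of these, 402, 19 and 220 were lower. It left 11 in TAU basal against WT basal, 6 of them lower.

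Replicate numbers did not pair the mice (correlations from −0.16 to 0.24), and the replicate block changed no call of the 10 genes, with counts of 0, 0, 0, 0 and 1. With the block, the untrained fold changes of Cldn5 and Ly6c1 turned to −0.072 and −0.0055.

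These uncalled fold changes also turned. With the choroid plexus covariate, Slc2a1 was at 0.040 in untrained mice and Rgs5 at 0.17 in TAU VEH against WT VEH. In TAU MOL against TAU VEH that covariate gave 0.091 for Cldn5, 0.24 for Cdh5, 0.23 for Pecam1, 0.25 for Flt1, 0.067 for Abcb1a, 0.12 for Pdgfrb and −0.047 for Rgs5. In WT VEH against WT VEH_HC it gave 0.28 for Cldn5, 0.52 for Cdh5, 0.70 for Pecam1, 0.72 for Flt1 and 0.10 for Pdgfrb. Library size alone gave 0.13 for Pecam1, 0.099 for Abcb1a and 0.14 for Rgs5 in TAU VEH against WT VEH, and 0.042 for Pecam1 and 0.056 for Abcb1a in TAU MOL against WT VEH. Rgs5 in TAU VEH against WT VEH was at 0.011 with DESeq2 and with its size factors, 0.0012 with no filter and 0.0031 with the 2 groups alone. The GC adjustment gave −0.11 for Rgs5 in TAU MOL against WT VEH (−0.105 with the replicate block), 0.00036 for Flt1 in TAU MOL against TAU VEH (0.0062 with the block), and 0.013 for Flt1 and −0.0032 for Abcb1a (−0.017 with the block) in WT VEH against WT VEH_HC.

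Leaving out 1 library at a time in TAU basal against WT basal, the fold changes ran from −0.42 to 0.36 for Cldn5, −0.093 to 0.56 for Cdh5, −0.037 to 0.20 for Ly6c1 and −0.24 to 0.036 for Slc2a1. In TAU VEH against WT VEH they ran from −0.096 to 0.059 for Pecam1, −0.11 to 0.024 for Abcb1a and −0.053 to 0.053 for Rgs5. In TAU MOL against WT VEH they ran from −0.22 to 0.071 for Abcb1a and −0.0097 to 0.099 for Rgs5. In TAU MOL against TAU VEH they ran from −0.20 to 0.089 for Cdh5, −0.14 to 0.016 for Pecam1, −0.19 to 0.15 for Flt1, −0.033 to 0.18 for Slco1a4, −0.17 to 0.12 for Abcb1a, −0.014 to 0.23 for Slc2a1 and −0.041 to 0.022 for Pdgfrb. In WT VEH against WT VEH_HC they ran from −0.29 to 0.032 for Pecam1, −0.19 to 0.24 for Flt1 and −0.11 to 0.26 for Abcb1a.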
